A study of Mus musculus with 2 samples.

Results

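The cells described here were the PD100 mouse embryonic stem cells (mESCs) with the largest share of their RNA in 12 mitotic genes. They were 155 cells, chosen from 777 ranked cells of the PD100 library, and are called members below. The study took Terc-/- mESCs, which lack the RNA template of telomerase, through long-term culture until they maintained their telomeres by alternative lengthening of telomeres (ALT), a telomerase-independent route. Single-cell RNA-seq was performed with droplets (inDrops) on pre-ALT cells, labelled passage 100 (PD100), and on post-ALT cells, labelled passage 800 (PD800), with 1 library for each. Both libraries came from the line DKO741, a knockout of both Terc alleles in E14 mESCs, so every cell in every comparison carried the deletion and the samples stand for a single line. The line was kept on mouse embryonic fibroblast feeders for maintenance and was used feeder-free for experiments.

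Mitosis is prepared in G2 by a burst of transcription. Cyclin B binds Cdk1 and starts entry into mitosis, Aurora and Polo kinases and kinesin motors build the spindle, the spindle checkpoint holds sister chromatids together until every kinetochore is attached, and the anaphase-promoting complex then destroys cyclin B and securin. Many genes of this programme share a promoter element, the cell cycle genes homology region (CHR), often placed near CCAAT boxes. Mouse embryonic stem cells divide fast with a short G1, so a large part of such a culture is in S or G2 at any time.

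The members were chosen by measured values. Of 1291 deposited PD100 barcodes, 814 had at least 1000 UMIs (unique molecular identifiers, which count captured RNA molecules) and at most 20% mitochondrial UMIs. Another 37 cells with at least 5 UMIs of Col4a1, Col4a2, Srgn, Gata6 and Gata4 in sum, genes of extraembryonic endoderm, were left out. The score of a cell was the percentage of its UMIs in Cdk1, Ccnb1, Ccnb2, Top2a, Cenpe, Cenpf, Aurka, Plk1, Ube2c, Cdc20, Tpx2 and Hmmr. The top 20% of cells by this score were the members. The rule compares them with cells that had no score UMI, which were only 26 cells (score-0 cells). The 622 ranked cells outside the top 20% (non-members) were therefore used as a further reference throughout. The same steps gave 180 members, 38 score-0 cells and 720 non-members among 900 PD800 cells, and the whole series held 2957 barcodes.

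The score was a continuous range and not a separate cell type. It had a median of 0.251% over the ranked PD100 cells and was above 0 in 751 of them. The lowest member had a score of 0.417% and the highest cell outside the same rounded value, a difference in the fourth decimal place. A change of 1 score UMI would have moved 47 members and 51 non-members across the boundary. Members held between 5 and 26 score UMIs with a median of 12, and 47 members had fewer than 10.

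**Figure D1:**
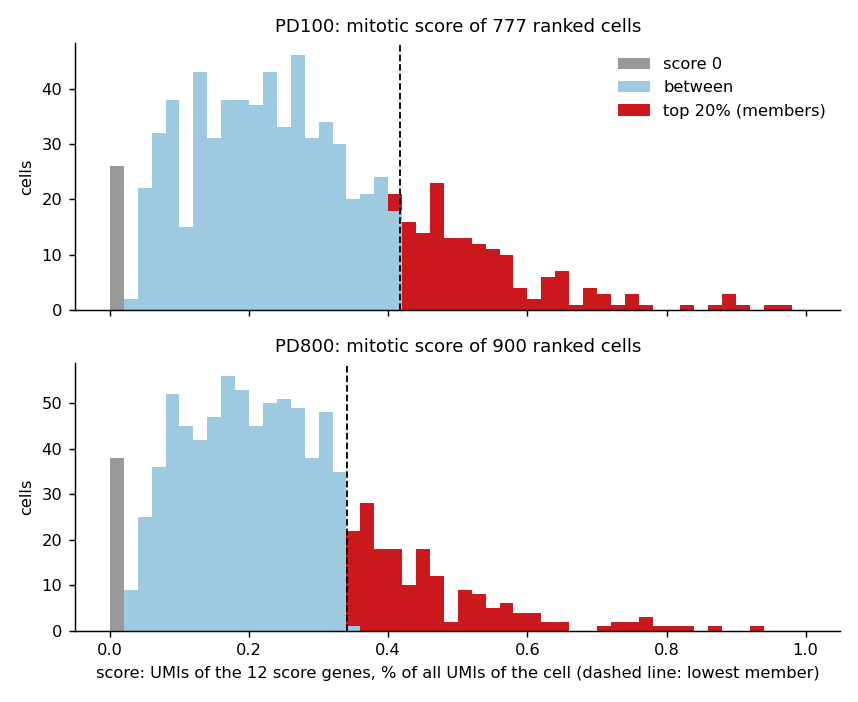
Histograms of the mitotic score (horizontal axis, percent of a cell's UMIs) for the ranked PD100 cells (top) and PD800 cells (bottom), stacked by set, with the number of cells on the vertical axis and the lowest member as a dashed line. The members form the upper tail of a single hump, and the score-0 cells (26 and 38) stand as a narrow bar at the left.

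Ccnb1, cyclin B1, led the score of the members with 339 UMIs over the 155 cells. Ube2c, the ubiquitin-conjugating enzyme of the anaphase-promoting complex, had 285 and Cdc20, its activator, 280. These 3 genes made up 47.5% of the 1902 score UMIs. Cdk1 followed with 179, Top2a (topoisomerase II alpha) with 167, Ccnb2 with 165 and Cenpf with 149. Aurka had 99, Hmmr 82, Plk1 65, the kinetochore motor Cenpe 50 and Tpx2 42. In the PD800 members the order differed, with Ube2c, Ccnb1 and Aurka in front at 46.5% of 2380 score UMIs. These levels follow from the rule and describe the members without testing anything.

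The score-0 cells differed from the members in depth. Their median was 1336 UMIs per cell (range 1011 to 3032), against 2168 (1013 to 5087) in the members and 2121 (1006 to 5524) in the non-members. A total of 19 of the 26 score-0 cells lay in the shallowest quartile of depth, where they made up 9.74% of cells against 1.55%, 1.03% and 1.03% in the deeper quartiles. Members were spread evenly, with 18.5% to 21.6% of each quartile. In the PD800 library the medians were 2644 UMIs in members, 1679 in score-0 cells and 2708 in non-members. The part of depth in the comparison with score-0 cells was not tested, and the comparison with non-members has near equal depths. Mitochondrial shares were close, with medians of 1.21% in members, 1.30% in score-0 cells and 1.25% in non-members. Scrublet called 1 member and 6 of all ranked PD100 cells doublets. Among ranked cells, 8 barcode names occurred in both libraries, 3 of them PD100 members.

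The label of the cells was checked against markers. Stem cell markers were present in members and non-members. Dppa5a stood at 8822 CPM (UMIs of a gene per 1000000 UMIs of a set of cells) in members and 9079 in non-members, Pou5f1 at 550.1 and 594, Zfp42 at 714 and 565, and Tdgf1 at 618 and 596. Sox2 was lower in members, at 147 and 190 CPM on 52 and 263 UMIs. The score-0 cells had Dppa5a at 11010 CPM, Pou5f1 at 348, Zfp42 at 423, Tdgf1 at 696 and Sox2 at 224. Fibroblast feeder markers summed to 25.4 CPM in members and 25.3 in non-members. The 16 endoderm markers outside the filter summed to 2000.2 CPM in members, 1799 in non-members and 1417 in score-0 cells, most of it from Apoe, with Sparc next. No UMI of Terc was counted in any barcode of either library. There was no wild-type library to compare with, so this count is no check of the knockout.

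The word mitotic was borne out only weakly by genes that the rule did not use. The 6 lists of mitotic genes outside the score, with 150 genes together and 146 present in the table, summed to 19895 CPM in members, 18690 in score-0 cells and 18803 in non-members. The log2 ratio of these sums was 0.09 (95% interval -0.02 to 0.20) against score-0 cells and 0.08 (0.04 to 0.12) against non-members. All intervals here are exact and cover counting error only. With 1 library per time point there is no replicate, so no p-value is given and nothing below says how another culture would behave. In the PD800 library the same ratios were 0.34 (0.25 to 0.43) and 0.17 (0.14 to 0.20).

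The same held cell by cell. In cells brought to an equal depth of 1000 UMIs by random draws, members held a median of 19 UMIs of these genes (lowest 5, highest 33), non-members 18 (5 to 36) and score-0 cells 17.5 (8 to 36). The sets overlapped over almost their whole range. Of the members, 90 lay above the non-member median and 65 lay at or below it. Of the 622 non-members, 297 lay above it. Across the 777 thinned cells the Pearson correlation between score UMIs and these UMIs was 0.05, and across the 900 PD800 cells it was 0.13. Both values are given as a description, since cells are not replicates. The cells are therefore described as high-score cells, and mitotic stays the name of the score.

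**Figure D2:**
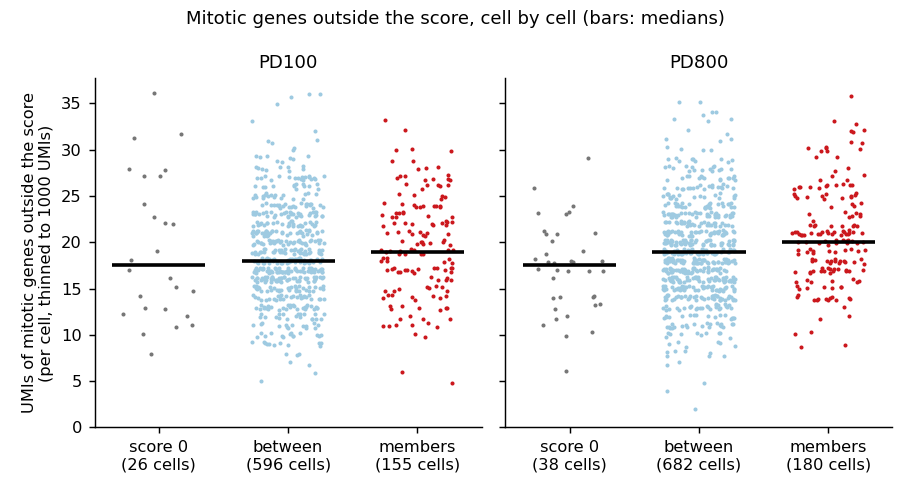
UMIs of mitotic genes outside the score per cell, thinned to 1000 UMIs (vertical axis), for score-0 cells, the cells between and members in PD100 (left) and PD800 (right). Points are cells, shifted slightly at random so that they do not hide each other, and bars are medians, which run from 17.5 in score-0 cells to 19 in PD100 members and 20 in PD800 members.

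Gene by gene, a gene was called higher or lower where its CPM differed at least 1.5-fold, among genes with at least 50 UMIs over both sets of cells. That sum includes the members, so a gene scarce in the reference can reach it only where members are high. Such genes called higher are a description and give no support to the label. The same minimum applied to the shares of all genes. Against score-0 cells 1534 genes reached that minimum, of which 18.8% (289) were called higher and 13.2% (203) lower in members. Of these, 77 higher and 86 lower genes had an interval that left out a ratio of 1. Against non-members 4597 genes were compared, and 6.72% (309) were called higher and 8.88% (408) lower, 175 and 159 of them with an interval that left out 1. In the PD800 library the shares were 15.7% and 10.7% against score-0 cells and 5.8% and 7.87% against non-members.

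Of the mitotic genes outside the score, 43 could be compared with score-0 cells. Of these, 11 were called higher and 6 lower, with a median log2 ratio of 0.06 (-0.26 to 0.34) against 0.03 over all compared genes. The share called higher was 25.6%, beside 18.8% of all genes. Against non-members 103 could be compared, with 17 higher, 7 lower and a median of 0.12 (0.03 to 0.21) against -0.02 over all genes. That is 16.5% called higher, beside 6.72% of all genes. In the PD800 library 24 of 48 were higher and 3 lower against score-0 cells, with a median of 0.57, and 24 of 112 were higher and 5 lower against non-members, with a median of 0.31. The difference between the time points was not tested.

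Another reference, the 155 PD100 cells with the lowest scores, was added after seeing the data because so few cells had a score of 0. These cells had a median of 1825 UMIs. Of 2310 genes compared, 6.62% (153) were called higher in members and 5.67% (131) lower. Among the mitotic genes outside the score 12 of 62 were higher (19.4%) and 4 lower, and their sum was 17992 CPM in the lowest cells, a log2 ratio of 0.15 (0.09 to 0.20). Motors and spindle proteins had 5 of 14 higher and 1 lower, with a log2 ratio of the sums of 0.47 (0.33 to 0.61).

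The promoter letters of these genes were set beside the counts, because the CHR is known as a shared element of mitotic genes. RefSeq promoters (GRCm38.p6, 250 bases before to 50 after the start) were matched by symbol and searched for TTTGAA or TTCGAA on both strands. Of 32851 promoters, 19.2% held a match. It was found in 9 of the 11 promoters of score genes (11 of 12 genes matched) and in 74 of 139 promoters of the mitotic lists, or 53.2%. Among S phase genes 9 of 48 promoters held it (18.8%). CCAAT, also on both strands, was held by 37.4% of all promoters, by all 11 of the score genes, by 61.2% of the mitotic lists and by 58.3% of the S phase list.

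Mitotic genes called higher in members against non-members had a match about as often as the other mitotic genes compared, with no test of the difference. A CHR match was held by 7 of 12 promoters of the former (58.3%, with 11 of 17 genes matched) and by 41 of 76 of the latter (53.9%). The stretches below are 5′ to 3′ on the gene's strand, end before the annotated start, and have the matched letters in capitals. Cdc20 and Ube2c are shown as score genes, and the rest were called higher in members. A match is a description of letters and not a measured binding site.

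Cdc20 (chr4:118437344-118437373, minus strand): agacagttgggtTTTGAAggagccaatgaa
Ube2c (chr2:164769888-164769917, plus strand): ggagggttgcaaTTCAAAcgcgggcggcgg
Prc1 (chr7:80294434-80294463, plus strand): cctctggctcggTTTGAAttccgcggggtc
Kif22 (chr7:127042421-127042449, minus strand): gggccccggtaaTTCAAAagagagaagcg
Ckap2 (chr8:22185903-22185932, minus strand): gctttgttcgatTTTGAAatttctcgccgg
Ncapd2 (chr6:125191692-125191721, minus strand): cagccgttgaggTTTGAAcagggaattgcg

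In Cdc20 the match ended 12 bases before the start, in Kif22 11, in Ube2c 23 and in Prc1 24. In Ckap2 it ended 95 and in Ncapd2 117 bases before the start.

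Motors and spindle proteins were the mitotic list with the largest summed difference against non-members. The 37 listed genes in the table summed to 3033 CPM in members, 2433 in non-members and 2535 in score-0 cells, a log2 ratio of 0.32 (0.22 to 0.42) against non-members and 0.26 (-0.04 to 0.57) against score-0 cells. Of 22 genes compared with non-members 6 were called higher (27.3%, beside 6.72% of all genes) and none lower, and of 10 compared with score-0 cells 4 were higher (40.0%, beside 18.8%) and none lower. In the PD800 library the log2 ratios of the sums were 0.47 and 0.97.

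Nusap1, which bundles spindle microtubules around chromosomes, lies at chr2:119618298-119651244 in GRCm38. It had 61 UMIs over the members, 3 over the score-0 cells and 138 over the non-members, or 172 CPM, 74.6 CPM and 99.8 CPM. The log2 ratio was 0.79 (0.33 to 1.23) against non-members and 1.21 (-0.41 to 3.52) against score-0 cells, so only the former interval left out a ratio of 1. In PD800 the ratios were 1.02 and 2.08.

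Prc1, the crosslinker of the anaphase central spindle, had 46 UMIs in members and 105 in non-members, a log2 ratio of 0.77 (0.24 to 1.29), beside 0.55 in PD800. Ckap2, a spindle microtubule protein, stood at 66 and 169 UMIs, with 0.61 (0.17 to 1.03), and Kif22, a motor on chromosome arms, at 60 and 153, with 0.61 (0.16 to 1.05). Kif20b had 42 and 99 UMIs and a log2 ratio of 0.73 (0.17 to 1.26), beside -0.09 in PD800. Against score-0 cells Ckap2 was at 0.58 and Kif22 at 0.18, neither called, and Prc1 and Kif20b had too few UMIs to be compared. Kpna2, an importin that carries spindle assembly factors, had 117 UMIs in members, 8 in score-0 cells and 355 in non-members, with log2 ratios of 0.73 (-0.29 to 1.98) and 0.36 (0.05 to 0.67). Kpna2 was further apart in PD800, at 2.20 and 1.07.

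A set of 6 mitotic genes outside the score were called higher against score-0 cells in both libraries, out of 37 compared in both. These were Cenpm, Kpna2, Haus1, Kif20a, Nusap1 and Arl6ip1. At equal CPM in the PD100 sets, Haus1, Kif20a, Nusap1 and Arl6ip1 would have fallen under the UMI minimum. They were compared with score-0 cells only because members were high. A further 4 were called higher only in PD100 and 11 only in PD800, and 13 of the 37 had a ratio above 1 in both. Against non-members 97 were compared in both libraries, of which 4 were called higher in both, 11 only in PD100 and 14 only in PD800. Of all genes, 18.8% in PD100 and 15.7% in PD800 were called higher against score-0 cells. Against non-members these shares were 6.72% and 5.8%. The share of all genes called higher in both libraries is not given here, so the overlaps are counts only.

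Arl6ip1, a membrane protein of the endoplasmic reticulum that was listed with mitotic chromatin, lies at chr7:118118891-118129662 in GRCm38. It had 99 UMIs over the members, 3 over the score-0 cells and 240 over the non-members, or 279 CPM, 74.6 CPM and 174 CPM. It was the only one of the 6 whose interval left out a ratio of 1 against both references, with log2 ratios of 1.91 (0.32 to 4.21) and 0.69 (0.33 to 1.03). In PD800 the ratios were 1.74 and 0.69. At 1000 UMIs per cell a UMI of Arl6ip1 was seen in 15.5% of members (95% interval 10.2% to 22.2%) and 12.9% of non-members (10.3% to 15.8%), intervals that overlapped. With all UMIs counted the shares were 34.2% and 22.5%. No cell type without these genes was present to measure free RNA.

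Haus1, an augmin subunit, had 72, 4 and 200 UMIs in members, score-0 cells and non-members, with log2 ratios of 1.03 (-0.39 to 2.95) and 0.49 (0.08 to 0.89). Kif20a, a motor of cytokinesis, had 49, 1 and 151, with 2.48 (-0.07 to 7.81) and 0.34 (-0.16 to 0.81). Cenpm, a centromere protein, had 130, 9 and 442, with 0.71 (-0.26 to 1.87) and 0.20 (-0.10 to 0.48). For these 3 genes the interval against score-0 cells included a ratio of 1, and for Cenpm and Kif20a so did that against non-members.

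**Figure D3:**
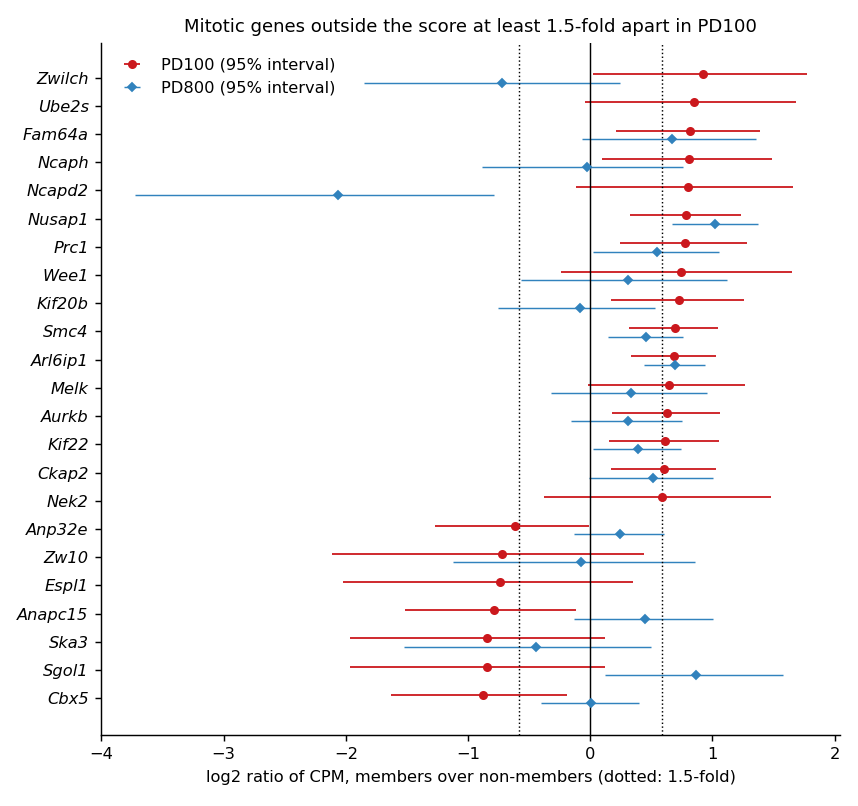
Log2 ratio of CPM, members over non-members (horizontal axis), for 23 mitotic genes outside the score that differed at least 1.5-fold in PD100 (16 higher, 7 lower), with 95% counting intervals. PD100 is in red and PD800, where the gene had enough UMIs, in blue. Nusap1, Fam64a and Arl6ip1 lie beyond the dotted 1.5-fold line in both libraries, and Ncapd2, Zwilch and Sgol1 lie more than 1.5-fold to opposite sides.

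Chromosome condensation and mitotic chromatin genes had a summed log2 ratio of 0.01 (-0.05 to 0.07) against non-members, with 5 of 19 called higher (26.3%, beside 6.72% of all genes) and 2 lower (10.5%, beside 8.88%). Genes of condensin, which compacts chromosomes, were among those called higher, and so was Arl6ip1, a membrane protein of the endoplasmic reticulum. Smc4, its core ATPase, had 91 UMIs in members, 2 in score-0 cells and 220 in non-members, with log2 ratios of 2.37 (0.47 to 5.44) and 0.69 (0.32 to 1.05). The condensin I subunit Ncaph had 27 and 60 UMIs in members and non-members, with 0.81 (0.10 to 1.49). Ncapd2 had 17 and 38, with 0.80 (-0.11 to 1.66). At equal CPM Ncapd2 would have fallen under the UMI minimum, as would Smc4 in the comparison with score-0 cells. In PD800 Smc4 was at 0.46, Ncaph at -0.03 and Ncapd2 at -2.06. Most UMIs of the list came from H2afz and Ran, with H2afz, a histone variant, at -0.22 (-0.33 to -0.11) and Ran, the GTPase of spindle assembly, at 0.05 (-0.07 to 0.16). Cbx5, heterochromatin protein 1 alpha, was the lowest of the list at -0.87 (-1.63 to -0.19).

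Kinetochore and spindle checkpoint genes summed to 3366 CPM in members, 2610 in score-0 cells and 3032 in non-members, log2 ratios of 0.37 (0.08 to 0.67) and 0.15 (0.06 to 0.24). Against score-0 cells 3 of 6 compared genes were called higher (Zwint, Spc24 and Cenpm, beside 18.8% of all genes) and none lower. Zwint, a kinetochore scaffold, had 72 UMIs in members and none in score-0 cells. Zwint was thus compared through its member UMIs alone. With 3 counts over the score-0 cells put in place of 0, the log2 ratio was 1.45. Its interval began lower, at 1.11, and had no upper end. The non-member ratio was 0.37 (-0.03 to 0.76). Against non-members 2 of 26 were higher (7.69%), Zwilch among them, and 3 lower (11.5%, Ska3, Sgol1 and Zw10), shares near the 6.72% and 8.88% of all genes, and the intervals of all 3 lower genes included a ratio of 1. Cenpa, the centromeric histone, was at -0.56 (-1.13 to 0.05) against score-0 cells and 0.22 (-0.03 to 0.46) against non-members.

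Of the chromosomal passenger complex, which corrects spindle attachments, the kinase gene Aurkb was called higher and its partners were not. Aurkb had 61 UMIs in members, none in score-0 cells and 154 in non-members, which is at least 1.21 on the log2 scale against score-0 cells and 0.63 (0.18 to 1.06) against non-members. Birc5, survivin, was at -0.11 (-0.74 to 0.58) and 0.15 (-0.10 to 0.38). Cdca8, borealin, was called lower against score-0 cells at -0.76 (-1.46 to 0.01) but was at 0.03 (-0.30 to 0.34) against non-members.

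Genes of the anaphase-promoting complex and its substrates showed little difference in sum, at 0.23 (-0.09 to 0.57) against score-0 cells and 0.08 (-0.03 to 0.19) against non-members. Pttg1, securin, stood at 494 CPM in members, 572 in score-0 cells and 477 in non-members. Against non-members 1 of 17 was called higher (5.88%) and 2 were lower (11.8%, Anapc15 and Espl1). These shares are near the 6.72% and 8.88% of all genes. Ube2s, which extends ubiquitin chains for the complex, was the higher gene, on 18 and 39 UMIs, with a log2 ratio of 0.85 and an interval from -0.04 to 1.69. Fbxo5, its inhibitor Emi1, was at 0.49 (0.10 to 0.87), short of 1.5-fold.

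Regulators of cyclin-dependent kinases and G2/M transcription factors went the other way against score-0 cells. They summed to 2951 CPM in members and 3977 in score-0 cells, a log2 ratio of -0.43 (-0.67 to -0.18), with none of 10 genes called higher and 5 lower (beside 13.2% of all genes). The lower genes were Cks1b and Cks2, small subunits bound to Cdk1, Ccna2 (cyclin A2), Ccnf (cyclin F) and Plk4, the kinase of centriole duplication. Cks2 had 89 UMIs in members, 23 in score-0 cells and 402 in non-members. Its log2 ratio was -1.19 (-1.86 to -0.46) against score-0 cells and -0.21 (-0.56 to 0.12) against non-members. Cks1b had 185, 34 and 764 UMIs, with -0.70 (-1.23 to -0.12) and -0.08 (-0.32 to 0.15). Against non-members the list summed to a log2 ratio of -0.01 (-0.11 to 0.09). The lower sum found against the 26 shallow cells was thus not seen against the larger set. Of 17 genes compared with non-members 3 were called higher (17.6%, beside 6.72% of all genes) and none lower. The higher genes were Nek2, Melk and Wee1, each with an interval that included a ratio of 1. In PD800 the list was at 0.39 (0.18 to 0.60) and 0.25 (0.18 to 0.32).

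Tubulins, the spindle's building blocks, were higher by a small amount, at 6864 CPM in members and 6385 in non-members, a log2 ratio of 0.10 (0.04 to 0.17). Tuba1a was the tubulin called higher against score-0 cells, with 266 and 16 UMIs and a log2 ratio of 0.92 (0.19 to 1.74), and was at 0.25 (0.05 to 0.45) against non-members. Tubb6 was called lower against score-0 cells at -1.16, on 59 and 15 UMIs, and was at -0.04 against non-members. Tuba1b, the most abundant, was at 0.01 (-0.28 to 0.32) and 0.08 (-0.02 to 0.19).

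S phase genes did not differ in sum beyond counting error. The 56 listed genes summed to 7349 CPM in members, 7953 in score-0 cells and 7422 in non-members, log2 ratios of -0.11 (-0.28 to 0.06) and -0.01 (-0.08 to 0.05). Against score-0 cells 5 of 26 were called higher (19.2%, beside 18.8% of all genes) and 5 lower (19.2%, beside 13.2%). Their median was -0.22 (-0.45 to 0.33) over the 26 genes. Fen1, a flap nuclease of lagging-strand synthesis, was highest on 90 and 2 UMIs, and Gins2, of the replicative helicase, was lowest of the called genes on 81 and 20. Against non-members 2 of 49 were higher (4.08%, beside 6.72% of all genes) and 4 lower (8.16%, beside 8.88%), with a median of 0.02 (-0.17 to 0.09). The lowest was Cdc45, of the same helicase, with 5 and 80 UMIs and a log2 ratio of -2.04 (-3.70 to -0.75), beside 0.10 in PD800. In PD800 the list as a whole was lower in members against non-members, at -0.18 (-0.23 to -0.12).

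Among all genes compared with score-0 cells, those highest by the end of the interval nearer to 1 were Nob1, Cst3, Zwint, Hspa5, Aurkb, Slc29a1, Ptges3, Gtsf1l, Lefty1, Chtop, Nudt5 and Upf3a. Every one of these had between 0 and 4 UMIs over the 26 score-0 cells, so the order is set by genes with few or no UMIs there. Nob1, a ribosome assembly nuclease, had 90 UMIs in members and none in score-0 cells. With 3 counts put in place of 0 its log2 ratio was 1.77, with an interval that began at 1.44. Against non-members Nob1 was at 0.44 (0.08 to 0.79). Cst3, cystatin C, had 109, 1 and 286 UMIs in members, score-0 cells and non-members, with 3.63 (1.12 to 8.95) and 0.57 (0.24 to 0.90). Lefty1, a Nodal antagonist, had 86, 1 and 240, with 3.29 (0.77 to 8.61) and 0.48 (0.11 to 0.84). Nudt5 and Gtsf1l were not higher against non-members, at -0.60 (-1.04 to -0.19) and -0.05 (-0.50 to 0.37).

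The 12 lowest by the same rule were Rps19bp1, Tsta3, Cdkn1a, Sarnp, Usmg5, Gm13075, Pfdn6, Suclg1, Mrps10, Mt1, Stard3nl and Tfdp1. Rps19bp1 had 52, 23 and 341 UMIs, with log2 ratios of -1.96 (-2.70 to -1.19) and -0.75 (-1.20 to -0.33), and it was called lower against both references, as was Sarnp at -1.78 (-2.65 to -0.85) and -0.74 (-1.25 to -0.26). Cdkn1a, the CDK inhibitor p21, had 46, 18 and 137 UMIs. It was at -1.79 (-2.60 to -0.91) against score-0 cells and at 0.39 (-0.13 to 0.88) against non-members. Mt1, a metallothionein, had the most UMIs of the lowest genes (270, 63 and 1316), with -1.04 (-1.44 to -0.62) and -0.32 (-0.52 to -0.13).

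Outside the cell cycle, chaperones were higher in members than in score-0 cells, at 22061 and 18417 CPM, a log2 ratio of 0.26 (0.15 to 0.37). Of 19 genes compared 4 were called higher (21.1%, near the 18.8% of all genes) and none lower. These were Hspa5 and Hsp90b1, chaperones of the endoplasmic reticulum, Hspd1 of mitochondria and Dnaja1 of the cytosol. Hspa5 had 146, 3 and 501 UMIs in members, score-0 cells and non-members, with log2 ratios of 2.47 (0.89 to 4.76) and 0.18 (-0.09 to 0.45). Against non-members the list was at 0.06 (0.02 to 0.10), with none of 20 called. Cytosolic ribosomal proteins were at -0.11 (-0.15 to -0.07) against score-0 cells and 0.01 (-0.01 to 0.02) against non-members, and p53 targets at -0.68 (-1.05 to -0.29) and -0.05 (-0.22 to 0.11).

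Naive pluripotency genes had 4 of 14 called higher against non-members (28.6%, beside 6.72% of all genes) and 1 lower (7.14%, beside 8.88%), with a median of 0.29 (0.14 to 1.06). Against score-0 cells the sum of the list was lower in members, at a log2 ratio of -0.21 (-0.35 to -0.08), with 2 of 5 called higher and none lower, and against the lowest 20% by score none of 5 was called higher. Esrrb, a nuclear receptor of the naive network, had 21 UMIs in members and 35 in non-members, 59.2 and 25.3 CPM, and a log2 ratio of 1.23 (0.37 to 2.05). At equal CPM Esrrb would have fallen under the UMI minimum, so it was compared only because members were high. Dppa3 was at 1.16 (0.42 to 1.88), Fgf4, a growth factor, at 1.06 (0.28 to 1.80) and Sox15 at 0.84, with an interval that began at 0.16. Dppa5a held most of the UMIs of the list, so that its sum gave a log2 ratio of 0.02 (-0.03 to 0.07). Nanog and Klf4, which the study discusses, were at 0.24 (-0.40 to 0.84) and 0.19 (-0.50 to 0.83). In PD800 Esrrb was at -0.53 and Fgf4 at -0.10.

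Immediate early and ERK response genes were lower in sum, at 1120 CPM in members and 1276 in non-members, a log2 ratio of -0.19 (-0.35 to -0.03). Of 13 compared genes 4 were called lower (30.8%, beside 8.88% of all genes) and none higher. Against score-0 cells none of 2 was called, and against the lowest 20% by score 1 of 3 was called higher and none lower. Dusp6, an ERK phosphatase, had 8 and 74 UMIs and was at -1.25 (-2.51 to -0.19), and Myc had 14 and 104 and was at -0.93 (-1.85 to -0.12). The intervals of Egr1 and Spry2 included a ratio of 1. The primed and Nodal list had 1 of 9 called higher against non-members (Lefty2, 11.1%, beside 6.72% of all genes). A further 3 were lower (33.3%, beside 8.88%), namely Krt18, Nodal and Otx2. The list's summed log2 ratio was -0.10 (-0.27 to 0.07) against non-members and -0.52 (-0.92 to -0.10) against score-0 cells. Against score-0 cells 1 of 3 was called higher and none lower, and against the lowest 20% by score 1 of 7 was higher and 3 lower. Krt18, a keratin, had 30 and 300 UMIs in members and non-members and was at -1.36 (-1.95 to -0.81), and Lefty2 had 62 and 160 and was at 0.60 (0.15 to 1.03). The intervals of Nodal and Otx2 included a ratio of 1.

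Hmgn1, the nucleosome-binding protein that the study follows in ALT, lies at chr16:96120618-96127729 in GRCm38. It had 305 UMIs in members, 36 in score-0 cells and 1194 in non-members, or 860.4 CPM, 895 CPM and 864 CPM. The log2 ratios were -0.06 (-0.56 to 0.48) and -0.01 (-0.19 to 0.18), so no difference was detectable at this depth. Hmgn1 in PD800 members stood at 2707 CPM, beside 2770 in PD800 non-members. Among shelterin and telomerase partners 3 of 11 were called lower against non-members (27.3%, beside 8.88% of all genes) and none higher. Against score-0 cells 1 of 4 was called higher and none lower, and against the lowest 20% by score none of 5 was called. Tinf2, the shelterin subunit TIN2, had 8 and 91 UMIs and a log2 ratio of -1.54 (-2.80 to -0.50), while the intervals of Terf2ip and Obfc1 included a ratio of 1. The list's sum, mostly Nhp2, was at -0.04 (-0.12 to 0.04). Atrx and Daxx, partners in histone H3.3 deposition, were at 0.29 (-0.27 to 0.83) and 0.03 (-0.43 to 0.47) against non-members. Rnaseh1, the nuclease of RNA-DNA hybrids that the study also discusses, was called higher on 28 and 60 UMIs, at 0.86 (0.16 to 1.53), beside -0.11 in PD800. Ctcf was at 0.53 (-0.08 to 1.11).

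**Figure D4:**
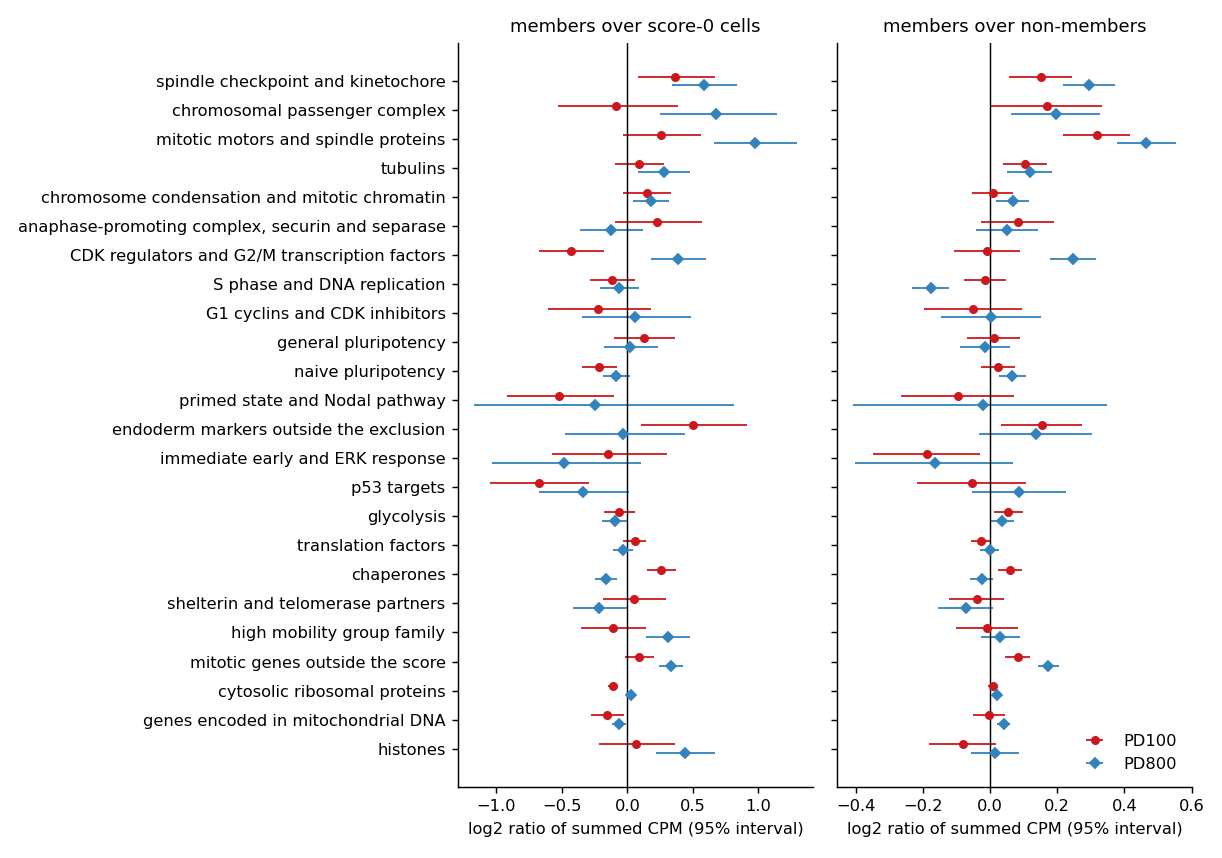
Log2 ratio of the summed CPM of each gene list with its 95% counting interval, members over score-0 cells (left) and over non-members (right), in PD100 (red circles) and PD800 (blue diamonds). Motors and spindle proteins lie highest against non-members in both libraries (0.32 and 0.47), and the list of CDK regulators lies on opposite sides of 0 against score-0 cells (-0.43 and 0.39).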

How the data were processed

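Single-cell libraries of DKO741 Terc-/- mESCs were analysed, 1 at PD100 and 1 at PD800, grouped by the labelled passage. The deposited values are raw counts, UMIs per barcode and gene, made by the authors with the inDrops pipeline at default settings on a transcriptome built from GRCm38/mm10. The annotation release is not given in the sources used here. The tables hold 38458 gene columns, and ranked cells summed to 1737186 (PD100) and 2580963 (PD800) UMIs.

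Cells are not replicates, so UMIs were summed over each set of cells and divided by its total (CPM). Ratios have exact conditional (Clopper-Pearson) intervals, shares exact binomial and sums exact Poisson intervals, at 95%, for counting error only. PCR duplicates were collapsed by UMI. Medians over genes have order-statistic intervals. The score genes were left out of all comparisons. A ratio with 0 UMIs in the reference was computed with 3 counts in that set. Genes were compared with at least 50 UMIs over both sets. Thinning to 1000 UMIs used seed 1. Scrublet in Scanpy 1.11.5 ran at an expected rate of 5%, and called cells were kept. Genes named were the score genes, those the study discusses, the 12 highest and 12 lowest against score-0 cells, the 4 with most UMIs per list and the mitotic genes called in both libraries. Genes outside that rule were named after their values were seen, as list members called in a comparison. Members and lists were chosen with earlier results of these data known. Coordinates are from GENCODE M21 and RefSeq. The ratio code was tested on simulated counts. Some genes are not reported here by name. No test, p-value or standard error was computed. Scripts ran in Python 3.11.15, NumPy 2.4.6, pandas 2.3.3, SciPy 1.17.1 and matplotlib 3.10.9. The alternatives tried covered the cell filter, the score, the size of the top set, the reference, weighting, scaling, doublets and the call rule.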

Additional observations from a re-analysis of the deposited data

Results flagged for a closer look

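The list of CDK regulators and G2/M transcription factors differed in direction between the libraries, with a summed log2 ratio of members over score-0 cells of -0.43 in PD100 and 0.39 in PD800. Within it, Cks1b was at -0.70 and 1.25 and Cks2 at -1.19 and 1.71, in PD100 and PD800. Chaperones were at 0.26 in PD100 and -0.16 in PD800, with Hspa5 at 2.47 and -1.15. Chtop, an mRNA export factor, was at 1.11 and -1.54, and Sarnp, another, at -1.78 and 2.32. These differences between the libraries were not tested, each library is 1 sample, and the score-0 sets were 26 and 38 cells.

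Barcodes outside the comparisons also held score UMIs. The 477 PD100 barcodes under 1000 UMIs had 0.278% of their UMIs in the score genes (95% Poisson interval 0.258% to 0.300%), and the 758 such PD800 barcodes 0.228% (0.214% to 0.242%). The 37 PD100 cells left out for endoderm genes had 0.257% (0.225% to 0.293%). There is no control sample for these values.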

How the results depend on the processing

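No paired analysis was possible because each time point has 1 library and no result comes from a test. A total of 15 planned settings and 1 added after seeing the data (the lowest 20% by score as reference) were run. Medians of mitotic and S phase genes stayed within their intervals in each. With at least 2000 UMIs per cell there were 88 members, and the ratio of median UMIs (1.62 as reported) was 0.969. Ranking on thinned scores gave a ratio of 1.11, with 176 higher and 123 lower genes, and with seed 2 a ratio of 1.04 and 242 members through ties. Cells with 1500 to 4000 UMIs gave 1.04. The top 10% were 78 members, with 114 higher and 89 lower. Non-members as reference gave a ratio of 1.02 and 408 lower, and the lowest 20% gave 1.19, 153 and 131. A minimum of 20 UMIs per gene gave 759 higher and 553 lower, one of 200 gave 23 and 12 (and no S phase median), and a 2-fold call gave 154 and 54.

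The ratios of 63 named genes moved outside their counting interval in some setting, reversals of called genes not counted. Changes of sign in genes short of 1.5-fold against score-0 cells were not counted as reversals. Of the named genes called at 1.5-fold against score-0 cells, 13 changed direction in a setting. At 2000 UMIs per cell these were Aurkb (-0.12), Spc24 (-0.23) and Haus1 (-0.23). On thinned scores they were Cst3 (-0.059), Nudt5 (-0.17) and Sparc (-0.43), and with seed 2 Spc24 (-0.084) and Kif20a (-0.10). With non-members as reference they were Gtsf1l (-0.055), Nudt5 (-0.60), Cdkn1a (0.39), Cdca8 (0.028), Anapc5 (-0.11), Pou5f1 (-0.11) and mt-Co3 (0.054), and with the lowest 20% Nudt5 (-0.41), Cdkn1a (0.38), Cdca8 (0.27), Anapc5 (-0.025) and mt-Co3 (0.019). With endoderm-like cells kept, Cst3 was at -0.45 and Sparc at -1.56. The cause was not tested. At a median near 2000 UMIs per cell, single genes in 26 cells rest on few molecules.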

Other observations

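Some genes outside the lists that were among the highest or lowest against non-members are named here after their values were seen, so they stand for no group. Others at the top, such as Gusb, a lysosomal enzyme, and Trappc3, a vesicle trafficking subunit, have other functions. Sapcd2, a regulator of spindle orientation, had 27 UMIs in members and 28 in non-members, the highest gene of that comparison by the interval's end, with a log2 ratio of 1.91 (1.09 to 2.73). At equal CPM Sapcd2, Gusb, Haus3 and Serpinh1 would have fallen under the UMI minimum, so they were compared only because members were high. Spdl1, which recruits dynein to kinetochores, was at 1.31 (0.57 to 2.03). Haus3, an augmin subunit, was at 1.36 (0.57 to 2.13), and Fam83d, which anchors casein kinase to the spindle, at 1.17 (0.47 to 1.85). The DNA repair genes Rad54l and Ube2t were at 1.28 (0.66 to 1.89) and 1.01 (0.55 to 1.46). Serpinh1, a collagen chaperone, was at 1.49 (0.73 to 2.22). The lowest by the same measure was Itch, a ubiquitin ligase, on 2 and 56 UMIs, at -2.84 (-5.92 to -0.92).

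The spread of score UMIs between thinned cells was wider than counting alone gives, with a variance of 1.67 times the mean in PD100 and 1.44 times in PD800. Mitotic genes outside the score had 1.49 and 1.45, and S phase genes 1.42 and 1.27. Motors and spindle proteins had a Pearson correlation with the score of 0.13 over the 777 PD100 cells and 0.11 over the 900 PD800 cells, given as a description.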
